A study of Mus musculus with 2 samples.

Results

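Asns, Psat1, Psph, Phgdh, Shmt2, Mthfd2, Aldh1l2, Atf5, Trib3 and Chac1 are 10 of the 22253 genes counted in a single-cell RNA library of mouse intestinal organoid cells. They encode the enzymes of serine and asparagine synthesis, mitochondrial folate enzymes, and stress-response regulators. The set was selected on measured values of these same cells: Atf5, Psph, Psat1, Mthfd2 and Asns were among the 10 leading genes of 1 cell cluster, and the genotype differences of Asns and Trib3 were known when it was drawn up. Levels across clusters are therefore given as a description, with no test. The common direction of the genotype differences supports nothing by itself, and neither does a count of genes that includes Asns or Trib3. All 10 genes had counts.

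The cells came from organoids of the mouse distal small intestine, which are three-dimensional epithelial cultures. Every culture carried the reporters Neurog3-RFP, for cells entering the enteroendocrine lineage, and Gcg-Venus, for cells that express proglucagon. There were 2 control cultures and 3 Etv1 mutant cultures, and the labels call them biological replicates; animal age, the kind of Etv1 mutation and the gate of the sort are not given in the labels. Sorted cells received hashtag oligonucleotides, a different one for each culture, and were sequenced as 1 pool. Of 2725 barcodes that passed the cell filter, 1432 were placed in 1 culture, with 197 to 349 cells and 4193197 to 7254380 counts per culture and median depths of 20842 to 24126 unique molecular identifiers (UMIs, counted transcripts) per cell. Etv1 itself, which encodes an ETS-family transcription factor, was at 6.20 and 6.28 counts per 1000000 (CPM) in control and at 3.21, 3.06 and 3.10 CPM in mutant cultures.

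Serine is made from a glycolytic intermediate in a short chain of steps: Phgdh encodes the dehydrogenase that opens the chain, Psat1 the aminotransferase that follows and Psph the phosphatase that releases serine. Asns encodes asparagine synthetase, which amidates aspartate. Shmt2, Mthfd2 and Aldh1l2 encode mitochondrial enzymes that pass the one-carbon unit of serine through folate. When amino acids are short or proteins misfold, kinases phosphorylate the initiation factor eIF2, general translation falls and translation of the transcription factor ATF4 rises. ATF4 is known to drive these enzyme genes together with Atf5 (a related transcription factor), Trib3 (a pseudokinase that restrains the response) and Chac1 (an enzyme that breaks down glutathione). ATF4 is controlled largely at translation, so that Atf4 mRNA need not follow its activity.

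ATF4 binds with C/EBP partners to a composite element with the core TGATGNAA, read as TTNCATCA on the other strand, and the promoters of the 10 genes were searched for it. The genes are ones that ATF4 is known to drive, so the share of them with the element supports nothing by itself. RefSeq promoters (GRCm38.p6) were found for 9 of the 10 genes; Aldh1l2 was not matched. In the 250 bases before a start, the core occurred in 2 of the 9 genes, Asns and Chac1, and in 3.45% of all 32851 promoters, or 3.91% of 27025 genes. The cyclic AMP response element TGACGTCA, searched on both strands in the same windows, occurred in 0 of the 9 genes and in 1.55% of promoters. The matches are shown with the core in capitals, on the strand of the gene:
Asns: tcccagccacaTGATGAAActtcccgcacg
Chac1: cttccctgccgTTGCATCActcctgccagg
The Asns match lies 23 bases before the RefSeq start, at chr6:7693214-7693243 on the minus strand. This is inside the bounds of the GENCODE vM21 gene (chr6:7675169-7693254), which begins farther upstream. The Chac1 match has the core on the opposite strand, 193 bases before the start, at chr2:119351038-119351067 on the plus strand, upstream of the gene (chr2:119351229-119354381). A match is a description of letters, and no match says only that these letters are not in the window.

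In mm10 coordinates Phgdh lies at chr3:98313170-98339990, Psat1 at chr19:15904678-15947337 and Psph at chr5:129765558-129787449. Shmt2 lies at chr10:127517123-127522444, Mthfd2 at chr6:83305691-83325908 and Aldh1l2 at chr10:83487450-83534140. Atf5 lies at chr7:44812256-44816658 and Trib3 at chr2:152337422-152344032. All 10 are protein-coding genes, and each but Chac1 is on the minus strand. In the annotation Aldh1l2 overlaps D10Wsu102e on the opposite strand, Atf5 overlaps Nup62 and Il4i1, Psph overlaps Cct6a and Shmt2 overlaps Ndufa4l2. No source used here says whether counting used the strand, so the counts of these 4 genes may include reads of their partners. The partners' own counts over all barcodes were 6610 for D10Wsu102e, 1273 for Nup62, 17 for Il4i1, 6651 for Cct6a and only 1 for Ndufa4l2. Psat1 overlaps Gm3329 on the opposite strand, and Mthfd2 overlaps Gm43890 on its own strand, where reads could be shared whatever the strand use.

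Clustering gave 10 clusters. Those named from markers were cycling-like (clusters 0 and 4, with 212 and 95 cells), stem-like (cluster 5, 265 cells, with Olfm4 and Smoc2 leading) and goblet/Paneth-like (cluster 3, 106 cells). Others were enterocyte-like (cluster 7, 82 cells) and enteroendocrine-like (cluster 8, 55 cells). Cluster 2 (191 cells) reached 0 markers of all 11 cell type lists and is called the Atf5-led cluster; its leading genes also included Ung, Phlda2, Ctsc, Pparg and Dctd. Cluster 1 (155 cells), led by Lgals3, Areg and Anxa1, held 6 of 12 enterocyte markers but none among its leading genes and stays unnamed. Clusters 6 and 9 were shallow, with medians of 5863 and 1344 UMIs, and stay unnamed. Cluster 6 held 6 of 8 stem markers, as did cluster 5, and cluster 9 held 6 of 10 Paneth markers, but none was among their leading genes. Cluster 6 had a median of 18.3% mitochondrial counts. When the 10 genes were left out of clustering, 153 of the 191 cells of the Atf5-led cluster again fell into 1 cluster of 181 cells.

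Among the clusters of ordinary depth, the enzyme genes were high in the Atf5-led cluster and in cycling-like cluster 0 and lower in enterocyte-like, goblet/Paneth-like and enteroendocrine-like cells. Trib3 and Chac1 had another order, with their highest means in enterocyte-like cells, followed by the Lgals3-led cluster. Enterocyte-like cells exceeded the Lgals3-led cluster in only 3 of 5 cultures for Trib3 and in 2 of 5 for Chac1. Atf5 was high in the Atf5-led cluster, in the Lgals3-led cluster and in enterocyte-like cells. The summed level of the 10 genes was 1099 ± 129 CPM in the Atf5-led cluster and 1030 CPM in cycling-like cluster 0 (means, with SD over 5 cultures). In stem-like cells it was 473 CPM, in enterocyte-like cells 436 CPM, in enteroendocrine-like cells 334 CPM and in goblet/Paneth-like cells 323 CPM. Low-depth cluster 6, which held as many stem markers as the stem-like cluster, was at 793 CPM. The Atf5-led cluster held 13.3% of the cells, 15.7% of all counts and 23.0% of the counts of the 10 genes.

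**Figure D1:**
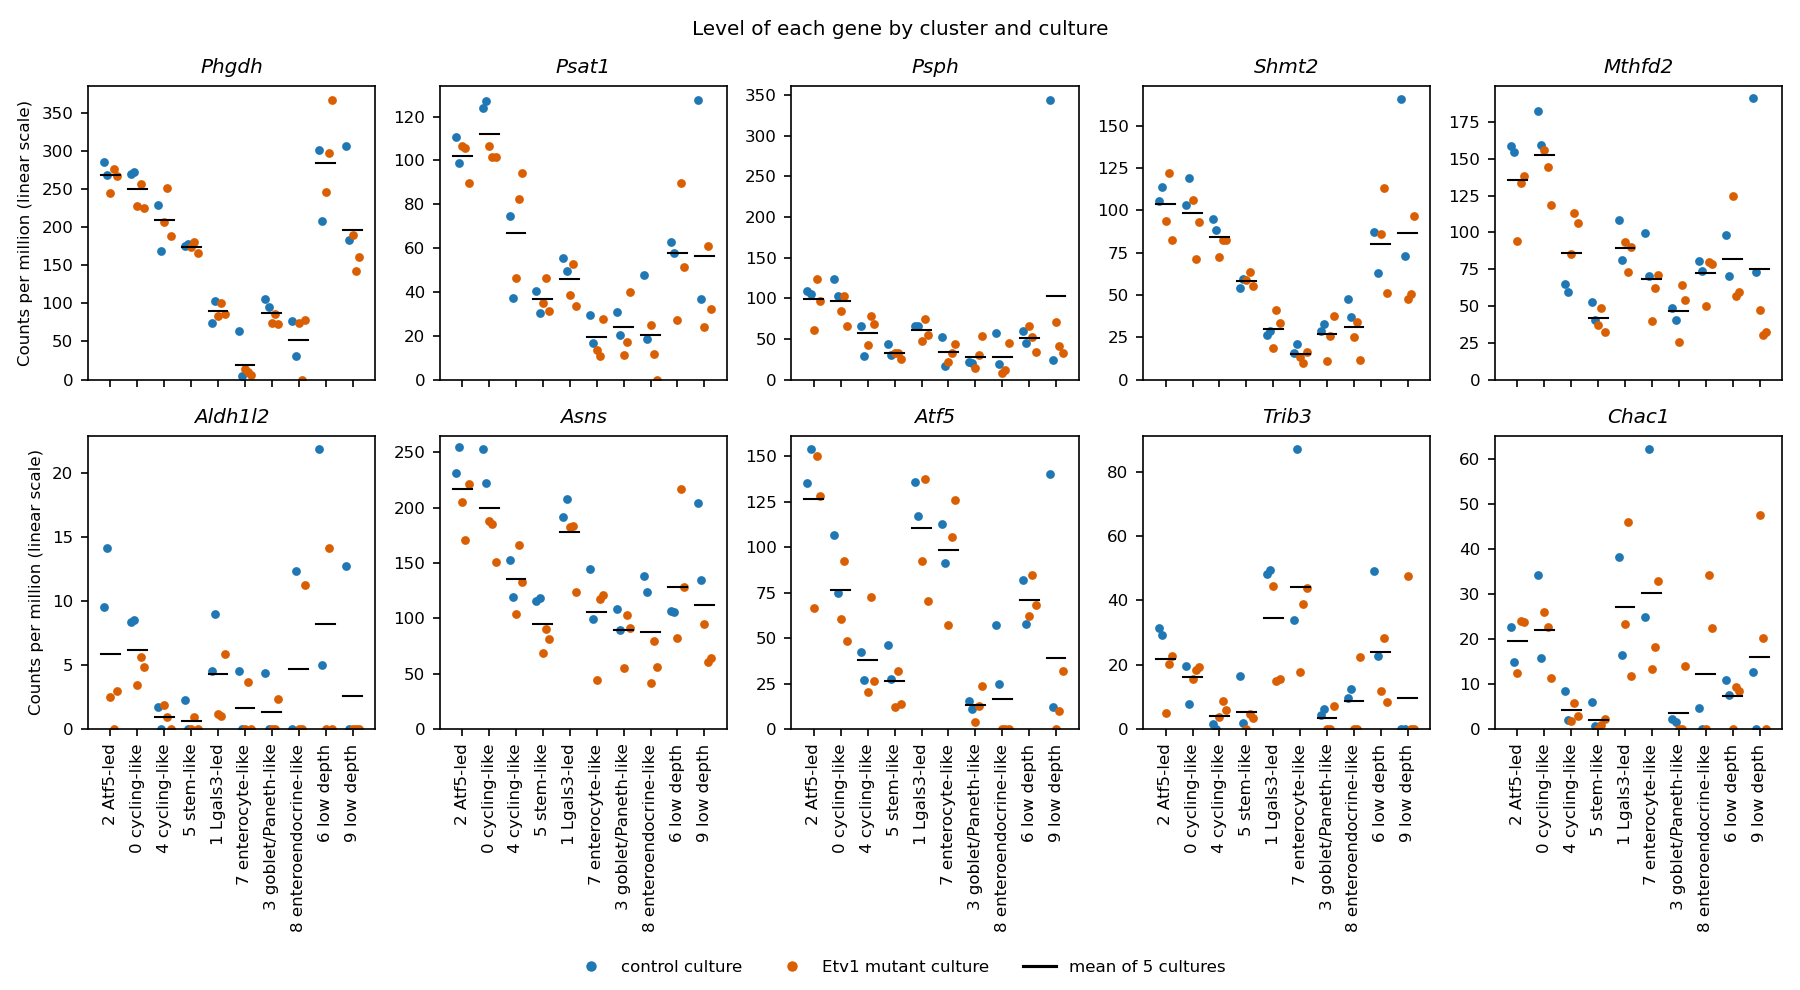
Level of each gene in CPM (vertical axis, linear, a scale of its own for each gene) in each of the 10 clusters (horizontal axis), with 1 point per culture, control in blue and Etv1 mutant in orange, and a bar at the mean of 5 cultures. Phgdh falls from 268 CPM in the Atf5-led cluster to 19.2 CPM in enterocyte-like cells, where Trib3 and Chac1 have their highest means.

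Phgdh showed the widest range in absolute CPM, though not in fold. In the Atf5-led cluster control cultures held 286 and 268 CPM and mutant cultures 244, 276 and 267 CPM, a narrow band. Stem-like cells held 175 and 177 CPM in control and 174, 180 and 166 CPM in mutant cultures. Enterocyte-like cells held 63.2 and 4.1 CPM in control and 13.3, 9.7 and 5.5 CPM in mutant cultures, so that 1 control culture stood above the other 4 there. The mean in the Atf5-led cluster was 14.0 times that in enterocyte-like cells and 5.15 times that in enteroendocrine-like cells, and the ranges over cultures did not overlap in either pair. In the order of the cluster means, the step from stem-like cells (174 CPM) down to the Lgals3-led cluster (89.5 CPM) was the one at which neighbouring ranges were apart. The highest mean, 284 ± 60.2 CPM, was in low-depth cluster 6, where the 5 cultures together held 362 Phgdh counts.

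Psat1 and Psph followed much the same order. Psat1 stood at 111 and 98.9 CPM in control and 106, 106 and 89.4 CPM in mutant cultures in the Atf5-led cluster, and its mean was highest in cycling-like cluster 0 (112 CPM). Its mean was 36.7 CPM in stem-like cells and 19.5 CPM in enterocyte-like cells, and both ranges lay below that of the Atf5-led cluster. Psph stood at 108 and 105 CPM in control and 61.4, 124 and 96.4 CPM in mutant cultures in the Atf5-led cluster, with mutant 1 lowest. Its means were 96.0 CPM in cycling-like cluster 0, 32.7 CPM in stem-like and 33.5 CPM in enterocyte-like cells. A higher mean in low-depth cluster 9 (103 ± 136 CPM) rested on 37 counts, with 344 CPM in control 1 and 24.4 to 71.2 CPM elsewhere.

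The mitochondrial folate enzymes differed among themselves. Shmt2, which transfers the one-carbon unit from serine, stood at 106 and 114 CPM in control and 93.9, 122 and 82.5 CPM in mutant cultures in the Atf5-led cluster. Its mean was 58.3 ± 3.9 CPM in stem-like and 15.2 ± 4.1 CPM in enterocyte-like cells, and the ranges were apart between stem-like cells and the next lower cluster. Mthfd2, which oxidises the folate-bound unit, stood at 159 and 155 CPM in control and 93.9, 133 and 138 CPM in mutant cultures in the Atf5-led cluster. Unlike Shmt2, it had its lowest mean in stem-like cells (42.1 ± 8.2 CPM) and a higher one, 68.6 CPM, in enterocyte-like cells, and it was higher in enterocyte-like than in stem-like cells in 5 of 5 cultures. Aldh1l2, which releases the unit as carbon dioxide, had 127 counts in all the cells and was below 10 CPM on average in every cluster, which allows no order of clusters.

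Asns was less selective. In the Atf5-led cluster it stood at 231 and 254 CPM in control and 205, 170 and 222 CPM in mutant cultures. The means were 200 CPM in cycling-like cluster 0, 178 CPM in the Lgals3-led cluster, 105 CPM in enterocyte-like and 94.8 CPM in stem-like cells, and 87.8 CPM in enteroendocrine-like cells was the lowest. The Atf5-led cluster exceeded stem-like cells 2.28-fold with no overlap of cultures, whereas no 2 neighbours in the order had separate ranges.

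The regulators and Chac1 set enterocyte-like cells apart from the enzymes. Atf5 stood at 136 and 154 CPM in control and 66.4, 150 and 128 CPM in mutant cultures in the Atf5-led cluster. Its means were 111 CPM in the Lgals3-led cluster, 98.7 CPM in enterocyte-like cells and 76.6 CPM in cycling-like cluster 0. Stem-like cells had 26.4 CPM and goblet/Paneth-like cells 13.3 CPM. Culture by culture, the Atf5-led cluster exceeded the Lgals3-led cluster in 3 of 5 cultures. It exceeded enterocyte-like cells and cycling-like cluster 0 in 5 of 5 each, though the ranges overlapped. Trib3 stood at 33.9 and 87.0 CPM in control and 17.7, 38.9 and 43.9 CPM in mutant cultures in enterocyte-like cells, and was higher there than in the Atf5-led cluster (mean 21.8 CPM) in 5 of 5 cultures, though the ranges overlapped. Chac1 stood at 24.8 and 62.1 CPM in control and 13.3, 18.2 and 32.9 CPM in mutant cultures in enterocyte-like cells, and exceeded the Atf5-led cluster (mean 19.6 CPM) in 4 of 5 cultures. In stem-like cells Trib3 averaged 5.3 CPM and Chac1 2.0 CPM. These levels rest on few reads: enterocyte-like cells held 80 Trib3 counts and 50 Chac1 counts in all.

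Genes of neighbouring pathways were then read in the Atf5-led cluster against all other cells, as log2 ratios of CPM averaged over cultures, for genes with a mean of at least 10 CPM. This is again a description of a cluster formed on the same cells. The ratio was above 0 for 9 of the 9 members at that level, with a median of 0.66, and for 2963 of all 7343 such genes, with a median of -0.07. Cytosolic aminoacyl-tRNA synthetases, which charge tRNAs with amino acids and include known ATF4 targets, were above 0 in 19 of 20 (median 0.32). In all 5 cultures 10 of them were above 0, against 797 of all 7343 genes. Tars (0.62), Nars (0.60), Yars (0.53) and Sars (0.49), the synthetases for threonine, asparagine, tyrosine and serine, were among those 10. Cycling-like cluster 0 was much alike: 19 of 20 synthetases were above 0 there (median 0.23), 9 of them in all 5 cultures, and 8 of the 9 members were above 0 (median 0.64). Of all 7343 genes, 3406 were above 0 in that cluster, 1418 of them in all 5 cultures. Endoplasmic reticulum chaperones were above 0 in 1 of 15 (median -0.18), with Hspa5 (BiP, the main luminal chaperone) at -0.14 and Calr (calreticulin) at -0.38. Regulators of the integrated stress response were above 0 in 9 of 16 (median 0.09). Among them, Stc2 (a secreted glycoprotein) was at 0.82, Cebpb at 0.60, Atf4 at 0.07 ± 0.32 (SD, n = 5), Ddit3 (CHOP) at -0.61 and Atf3 at -1.12. In enterocyte-like cells 2319 of all 7343 genes were above 0, with a median of -0.48. The integrated stress regulators were above 0 there in 6 of 16 (median -0.35), with Ddit3 at 1.51, Atf4 at 0.04, Stc2 at -2.07 and Nupr1 at -2.98. The 6 glutathione genes had a median of 1.30 in enterocyte-like cells, with 6 of 6 above 0.

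Across single cells the 10 genes varied together to a modest extent. Each cell was thinned to 10000 UMIs, so that depth was equal, and 1092 cells reached that depth. The planned depth was 3832 UMIs, and 10000 was chosen after the data were seen. The median Pearson r of the 45 gene pairs was 0.25, and 45 of 45 pairs were above 0. The highest values were between Asns and Mthfd2 (0.37), Asns and Atf5 (0.35) and Asns and Psph (0.35). The lowest were between Aldh1l2 and Chac1 (0.02) and between Phgdh and Trib3 (0.03). At 3832 UMIs per cell, with 1288 cells, the median was 0.12, with 44 of 45 pairs above 0. Cells also share their library, culture and cell cycle state.

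Barcodes without a hashtag call were not clustered and took no part in the selection, although they come from the same library. In the 447 of them that reached 10000 UMIs, the median r was 0.26, with 43 of 45 pairs above 0. Phgdh and Shmt2 (0.41), Psat1 and Psph (0.39) and Asns and Mthfd2 (0.39) were the highest, Trib3 with Chac1 was at 0.34, and Phgdh with Trib3 was at -0.01. Within single cultures the median ran from 0.17 in mutant 2 to 0.25 in control 1, and inside the Atf5-led cluster it was 0.14. After thinning, a median of 5 of the 10 genes was detected per cell in the Atf5-led cluster, 4 in both cycling-like clusters, 3 in stem-like cells and 2 in enterocyte-like, goblet/Paneth-like and enteroendocrine-like cells.

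**Figure D2:**
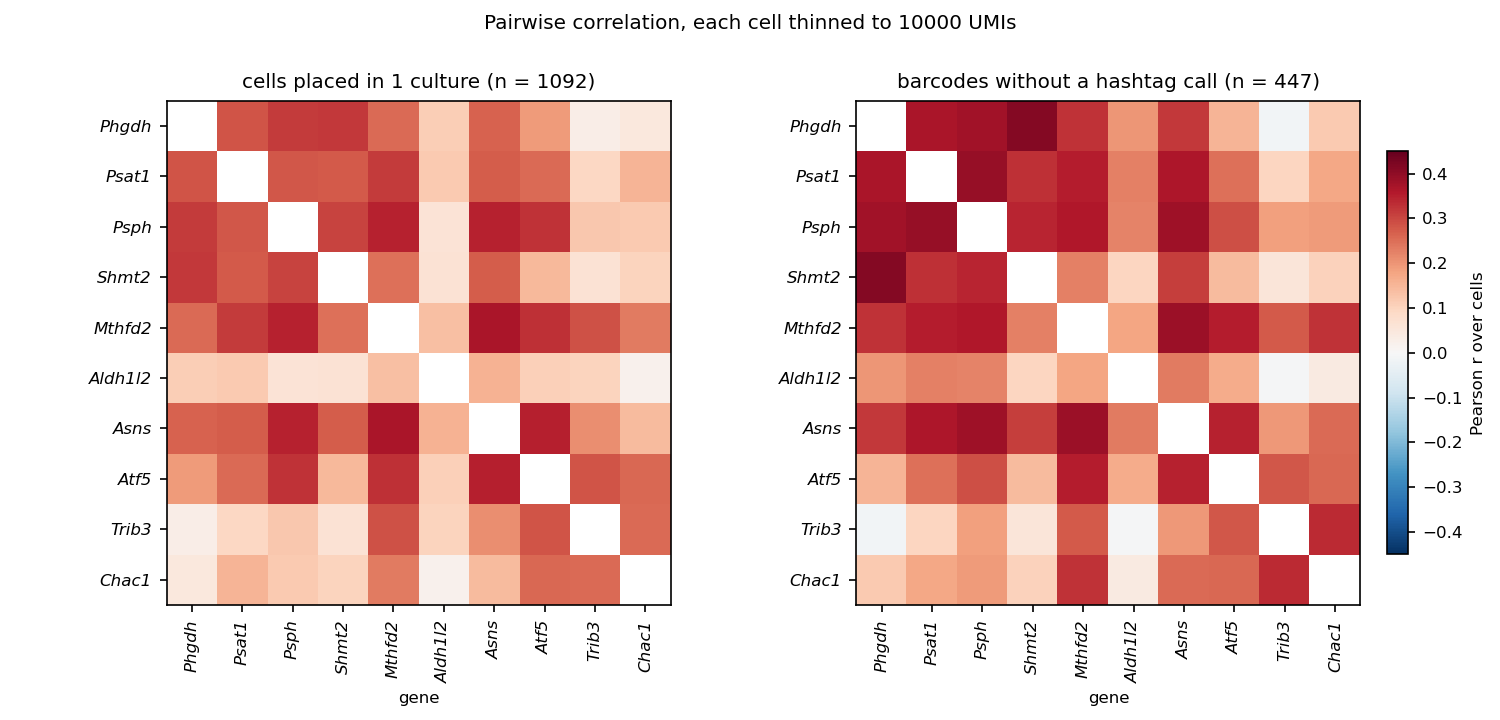
Pearson r over cells (colour scale, red above 0) for each pair of the 10 genes, each cell thinned to 10000 UMIs, in 1092 cells placed in 1 culture (left) and 447 barcodes without a hashtag call (right). The block from Phgdh to Mthfd2 together with Asns is dark in both panels, while Trib3 with Phgdh is near 0 (0.03 and -0.01).

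Among 10352 other genes, those most like the set were ranked by Pearson r with the mean standardized level of the 10 genes over the 1432 cells; these values were scaled per cell but not thinned. Eif4ebp1, which encodes an inhibitor of cap-dependent translation, came first with r = 0.60. Nars followed at 0.57, Phf10, a chromatin remodeller subunit, at 0.51, Cth, which makes cysteine from cystathionine, at 0.47 and Stc2 at 0.46. Gars (0.45), Sars (0.41) and Rars (0.38) are further tRNA synthetases, Pck2 (0.39) is mitochondrial phosphoenolpyruvate carboxykinase, and Eif2s2 (0.37) is a subunit of eIF2. In the 1054 barcodes without a hashtag call, Eif4ebp1 ranked 1 (r = 0.43), Cth 2 (0.39), Nars 3 (0.38), Rars 4 (0.37) and Phf10 5 (0.36) of the same 10352 genes. Eif2s2, at 0.24, ranked 60 there.

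The next question was whether the level of these genes differs between Etv1 mutant and control cultures. Over all cells, the mutant-minus-control log2 fold change was below 0 for 10 of 10 genes, with a median of -0.18 against 0.00 for the 11061 genes tested, of which 49.0% were below 0. Without control 1 the median of the 10 was -0.08, and without control 2 it was -0.35. None of the 10 passed edgeR's quasi-likelihood test (Benjamini-Hochberg adjusted p = 0.9997 for each), and DESeq2 called 0 as well. At an unadjusted p under 0.05, 3 of the 10 were lower in mutant cultures: Aldh1l2, Asns and Trib3. The differences of Asns and Trib3 were known when the set was drawn up, so this count supports nothing by itself. One gene in all, Pyy, passed among the 11061, or 0.00904%, and 1.84% of all genes were lower at an unadjusted p under 0.05. In bulk sums of this kind, fewer cells of a type and less RNA per cell cannot be told apart.

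**Figure D3:**
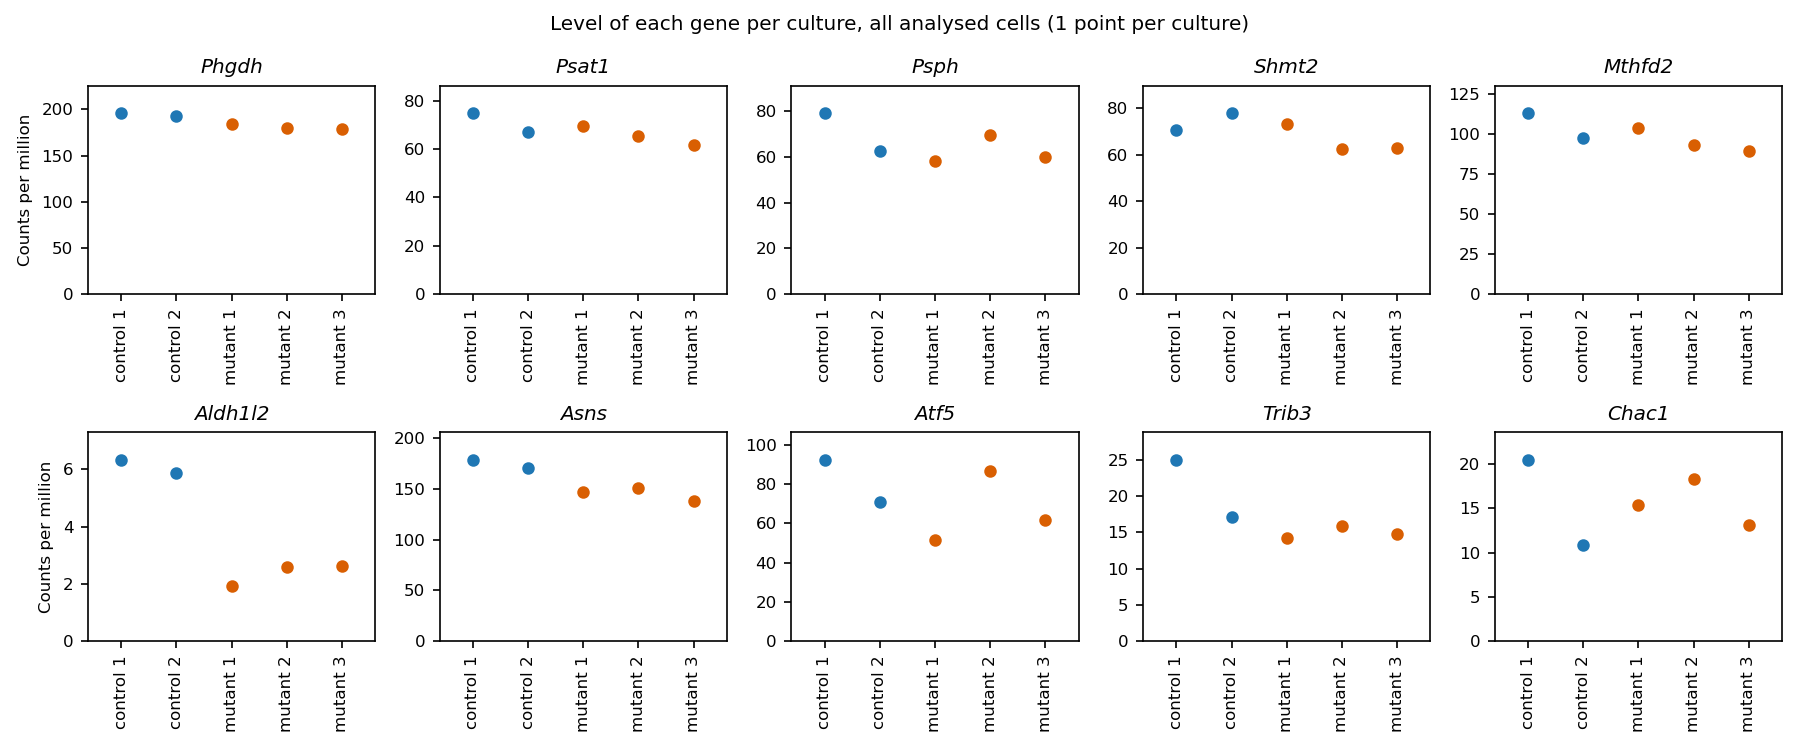
CPM (vertical axis, from 0) of each gene summed over all analysed cells, 1 point per culture (horizontal axis), control cultures in blue and Etv1 mutant cultures in orange. For Aldh1l2, Asns, Phgdh and Trib3 every mutant culture lies below both control cultures, and for the other 6 genes the groups overlap.

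Aldh1l2 had the largest difference. Control cultures held 6.34 and 5.86 CPM and mutant cultures 1.92, 2.60 and 2.62 CPM, so the groups did not overlap. These levels were 46 and 41 counts against 12, 17 and 11 counts. The counts came from 40 and 31 cells against 11, 13 and 10 cells, and no cell held more than 3. The log2 fold change was -1.37 (SE 0.27; edgeR unadjusted p = 0.00122, adjusted p = 0.9997). As pooled counts the mutant level was 0.39 times the control level, with an exact 95% interval of 0.26 to 0.57 that covers counting error only. Its overlapping neighbour D10Wsu102e stood at 108 and 121 CPM in control and 129, 96.3 and 116 CPM in mutant cultures, with overlap. Outside the Atf5-led cluster the Aldh1l2 log2 fold change was -1.03.

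Asns stood at 179 and 171 CPM in control and at 148, 151 and 138 CPM in mutant cultures, without overlap. Its log2 fold change was -0.27 (SE 0.084; edgeR unadjusted p = 0.0140, adjusted p = 0.9997). Averaged within clusters, the mutant cultures were lower than the control cultures in 9 of 10 clusters. Trib3 stood at 25.1 and 17.1 CPM in control and at 14.3, 15.9 and 14.8 CPM in mutant cultures, also without overlap, at -0.50 (SE 0.19; edgeR unadjusted p = 0.0315, adjusted p = 0.9997). Control 1 set much of the Trib3 value, which was -0.18 without it. Phgdh stood at 196 and 193 CPM in control and at 184, 180 and 178 CPM in mutant cultures, again apart, but its log2 fold change was only -0.11 (SE 0.074).

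Groups without overlap and lower in mutant cultures were thus found for 4 of the 10 genes and for 7.8% of all genes tested. Asns and Trib3, whose differences were known when the set was drawn up, are among these 4. In the other 6 the groups overlapped. Atf5 stood at 92.6 and 71.0 CPM in control and at 51.6, 87.0 and 61.5 CPM in mutant cultures. Chac1 stood at 20.5 and 10.9 CPM in control and at 15.4, 18.3 and 13.1 CPM in mutant cultures, with a log2 fold change of -0.01 that turned to 0.55 without control 1. Psph changed sign as well without control 1 (0.01, against -0.19 with all cultures). The remaining genes were Psat1 (-0.12), Shmt2 (-0.17) and Mthfd2 (-0.15). Atf4 mRNA itself was at 163 and 134 CPM in control and 133, 138 and 135 CPM in mutant cultures.

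**Figure D4:**
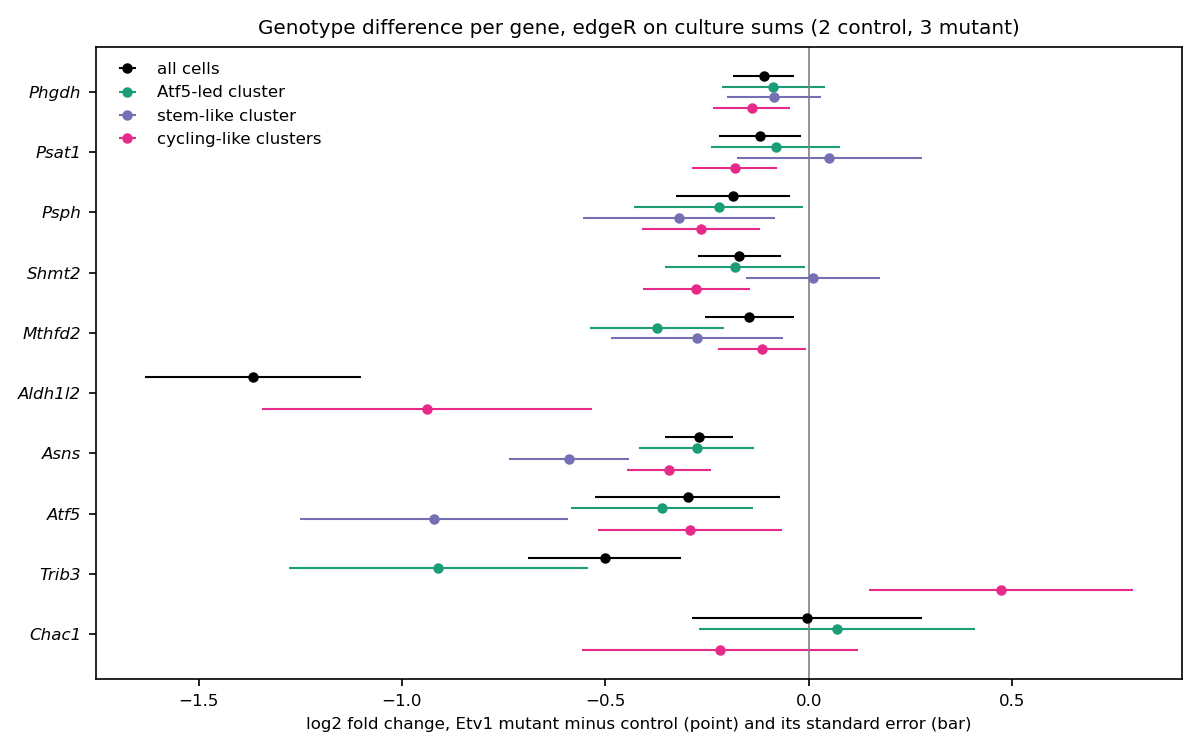
Log2 fold change, Etv1 mutant minus control, with its standard error (horizontal axis) for each of the 10 genes in all cells, the Atf5-led cluster, the stem-like cluster and both cycling-like clusters together; genes filtered out as too low have no point. Most points lie left of 0, Aldh1l2 is farthest left in all cells (-1.37), and Trib3 lies right of 0 in cycling-like cells (0.47).

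Within clusters, the test was possible where each culture had at least 20 cells, which held for the Atf5-led and the stem-like cluster; the cycling-like clusters were added by joining them. In the Atf5-led cluster 9 of the 10 genes passed the filter on low counts, 8 were below 0 and 0 passed the test with edgeR or DESeq2, against 1 of 7446 genes tested with edgeR (0.0134%). At an unadjusted p under 0.05 there were 2 of the 9, Mthfd2 and Trib3, against 5.12% of all genes tested in this cluster. Mthfd2, with the values given above for that cluster, had a log2 fold change of -0.37 (SE 0.17; edgeR unadjusted p = 0.0385, adjusted p = 0.937). It was -0.21 without mutant 1, the lowest culture. In the counterpart cluster made without the 10 genes Mthfd2 was also at -0.21 (edgeR unadjusted p = 0.178, adjusted p = 0.889) and Asns at -0.36 (edgeR unadjusted p = 0.0160, adjusted p = 0.889). In the Atf5-led cluster itself Trib3 stood at 31.5 and 29.1 CPM in control and 5.0, 20.4 and 22.9 CPM in mutant cultures. Its log2 fold change was -0.91 (SE 0.37, edgeR unadjusted p = 0.0250, adjusted p = 0.895). Mutant 1 was far below the others, and without it the value was -0.47. Asns was at -0.28, without overlap, and Aldh1l2, too low to be tested, had 9.5 and 14.1 CPM against 2.5, 0.0 and 3.0 CPM.

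In stem-like cells 7 genes passed the filter, 5 were below 0 and 0 passed the test with edgeR or DESeq2, against 3 of 7787 genes with edgeR (0.0385%). At an unadjusted p under 0.05 there were 2 of the 7, Asns and Atf5, against 5.82% of all genes tested in this cluster. Asns stood at 115 and 118 CPM in control and at 68.7, 90.2 and 81.7 CPM in mutant cultures, without overlap. Its log2 fold change was -0.59 (SE 0.15; edgeR unadjusted p = 8.35e-04, adjusted p = 0.541). That value depended on where the cluster ends: when clusters were rebuilt without the 10 genes, the counterpart shared 142 of the 265 cells and gave -0.15. Atf5 stood at 46.5 and 27.6 CPM against 12.1, 31.9 and 13.8 CPM, at -0.92 (SE 0.33; edgeR unadjusted p = 0.0118, adjusted p = 0.700), and at -0.37 in the rebuilt cluster. Without control 1 the Atf5 value was -0.49.

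In the joined cycling-like clusters all 10 genes were tested, 9 were below 0 and 0 passed with edgeR, against 2 of 9210 genes (0.0217%). At an unadjusted p under 0.05 there were 2 of the 10, Asns and Aldh1l2, against 4.2% of all genes tested in these cells. Asns stood at 222 and 199 CPM in control and 172, 177 and 145 CPM in mutant cultures, at -0.34 (SE 0.10; edgeR unadjusted p = 0.00572, adjusted p = 0.986). Aldh1l2 stood at 6.3 and 6.6 CPM against 3.2, 3.7 and 3.1 CPM, at -0.94 (SE 0.41). Trib3 was above 0 here, at 0.47 (SE 0.32), with 14.2 and 6.1 CPM in control and 13.4, 14.3 and 14.6 CPM in mutant cultures. Whether the Trib3 difference itself differs between these clusters was not tested.

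Neighbouring pathways gave 0 genes past the adjusted threshold over all cells with edgeR, and 5 at an unadjusted p under 0.05, which 3.05% of all genes tested reached in either direction. Amino acid transporters were below 0 in 10 of 11 tested (median -0.23), with 3 at an unadjusted p under 0.05. Slc7a11, the cystine carrier, stood at 10.6 and 11.9 CPM in control and 6.1, 7.8 and 7.4 CPM in mutant cultures (-0.67), and Slc1a4, a carrier of serine and other neutral amino acids, was at -0.44. Among other amino acid synthesis genes 5 of 13 were below 0, and 2 had an unadjusted p under 0.05. These were Gpt2, a mitochondrial alanine aminotransferase, at 7.3 and 7.4 CPM against 3.4, 2.8 and 4.1 CPM (-1.15, SE 0.24; edgeR unadjusted p = 0.00176, adjusted p = 0.9997), and Pycr1, a proline synthesis enzyme (-0.66). Integrated stress regulators were below 0 in 15 of 20 (median -0.10), tRNA synthetases in 15 of 20 (-0.07), other folate and glycine genes in 10 of 16 (-0.02), endoplasmic reticulum chaperones in 10 of 15 (-0.01) and glutathione genes in 0 of 6 (0.31).

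The share of cells in the cluster richest in these genes was compared with clusters made without them. Control cultures had 10.8% and 13.2% of their cells there, and mutant cultures had 10.3%, 11.03% and 20.3%. The mutant mean was 1.87 percentage points higher, with overlap between the groups and 1 mutant culture far above the rest (two-sided exact permutation test, p = 0.9, where the smallest p that 10 splits allow is 0.1). Without mutant 3 the difference was -1.35 points. For the clusters used in the sums above, cycling-like cluster 0 held 11.8% and 14.9% of control and 23.4%, 13.5% and 9.1% of mutant cells. Enterocyte-like cells made up 5.6% and 3.7% of control and 4.6%, 10.3% and 4.6% of mutant cells. The part of these shares in the differences over all cells was not tested.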

How the data were processed

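The authors deposited raw hashtag counts (5 hashtags, 3409 barcodes). For the same barcodes the authors deposited estimated counts of RNA per gene, not normalized as far as the values show; 95.55% of those above 0 are whole (within 1e-09). The submitters' processing notes name the build mm10 and the tools alevin, Salmon 1.4.0, Seurat 4.3.0 and Cell Ranger 6.1.0, without their roles.

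Barcodes were assigned with HTODemux (Seurat 5.3.0, positive quantile 0.99) and kept with at least 500 genes and at most 25% mitochondrial counts. Of 2725 kept, 1054 had no hashtag call, and 239 had several and were removed as doublets; doublets within a culture may remain. Cells were clustered in scanpy 1.11.5 (2000 variable genes, of which 3 were among the 10 genes described, 30 components, 15 neighbours, resolution 0.8). A cluster was named from at least 3 markers with a log2 fold of 0.5 in at least 25% of its cells, where markers of that list were also among its 10 leading genes. Clusters 1, 6 and 9 reached 3 markers of a list but had none of them among their leading genes. Names are rebuilt here. CPM is a gene's counts per 1000000 counts of the same cells.

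Counts were summed per culture, rounded and tested with edgeR 4.0.16 (TMM, filterByExpr, Benjamini-Hochberg over all genes tested, threshold 0.05). The procedure was tested on simulated counts with the same spread for every gene. That does not show how small a difference it could detect in these cultures. DESeq2 1.42.0 was an alternative. Correlations over cells carry no test. Mean standardized levels used counts scaled to 10000 per cell and genes found in at least 5% of cells. Log2 ratios between clusters used a pseudocount of 1 CPM. Promoters come from RefSeq (GRCm38.p6) and positions from GENCODE vM21 on mm10. The genes, pathway lists and tests were chosen with earlier results of these data known. Named genes are the 10 genes, the 3 smallest p values of each list as examples, and the 10 genes most like the set. Any other gene was picked with its values in view.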

Additional observations from a re-analysis of the deposited data

Results flagged for a closer look

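Barcodes with several hashtags, which no comparison used, also held these genes: in 239 such barcodes the 10 genes summed to 822 CPM. In the 1054 barcodes without a hashtag call they summed to 754 CPM.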

How the results depend on the processing

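None of the 10 genes passed the adjusted threshold under any alternative run (DESeq2, no filter on low counts, MULTIseqDemux, at most 15% mitochondrial counts, 197 cells per culture, no low-depth clusters, clusters made without the genes, each culture left out); the smallest adjusted p was 0.952 over all cells, 0.718 in the Atf5-led and 0.111 in the stem-like cluster. Signs reversed in 6 of 120, 5 of 63 and 7 of 49 single-gene values. Over all cells Chac1 was 0.014 with MULTIseqDemux and 0.16 with equal cell numbers. With each culture left out in turn, Chac1 ran from -0.42 to 0.55 and Psph from -0.37 to 0.014 over all cells. In the Atf5-led cluster Chac1 ran from -0.18 to 0.40, Psph from -0.40 to 0.012 and Psat1 from -0.15 to 0.0094. In the stem-like cluster Psat1 ran from -0.17 to 0.28 and Shmt2 from -0.048 to 0.065. In its counterpart made without the genes, the median was 0.064, with Psph at 0.28, Phgdh at 0.064 and Mthfd2 at 0.022. The median over all cells was -0.31 with MULTIseqDemux and ran from -0.35 to -0.08 with a culture left out. Genes called in all numbered 6 with DESeq2, 2 without the filter, 2 with MULTIseqDemux and 1 to 6 with a culture left out, against 1. They numbered 3 (DESeq2), 2 (clusters made without the genes) and 0 to 9 (a culture left out) in the Atf5-led cluster, against 1. In the stem-like cluster they numbered 2, 1 and 0 to 14, against 3. The median r was 0.33 without thinning and 0.25 at 10000 UMIs, an alternative chosen after seeing the data, as were the joined cycling-like clusters and the cells outside the Atf5-led cluster. The difference in share was -1.28 points with clusters made with the genes, -2.87 at resolution 0.5 and -0.45 at resolution 1.2, and ran from -1.35 to 3.66 with a culture left out. The cause of these changes was not tested. No paired analysis was possible because the labels give the cultures hashtags but no replicate numbers; the numbers used here follow the hashtag order and pair nothing. Depth limits Aldh1l2, Trib3 and Chac1 most.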
